A study of Mus musculus with 8 samples.

Results

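The comparison set livers of mice given a 21% corn oil diet against livers of mice given 5% corn oil (w/w) at 90 days of age, using 4 of the 8 arrays of the series: F1 5% D90, F3 5% D90, F1 21% D90 and F3 21% D90. As the series describes them, all samples were liver total RNA of female C57/BL6 mice collected after a fast of 6 h, and Illumina bead arrays gave the expression values. The series holds 1 array for every combination of these diets, F1 and F3 generations and ages of 90 and 456 days, and the 21% array was set against the 5% array of the same generation, giving an F1 pair and an F3 pair. The sources used here leave unsaid if the RNA on an array came from 1 animal or from several, and when in life and in which generations the diets were eaten. With 2 arrays a side, a p-value covers the spread among these 4 arrays alone, which may be technical. A gene was counted as a member when its log2 difference, 21% minus 5%, was at least 0.5 in the same direction in both pairs. By that rule there were 26 genes of 8945 kept (0.291%), of which 8 were higher (0.0894%) and 18 lower (0.201%) with 21% corn oil.

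Liver turns surplus carbohydrate into fatty acids through acetyl-CoA carboxylase, fatty acid synthase and the enzymes that then elongate and desaturate the chain. The genes of this pathway are driven by the transcription factors SREBP-1c and ChREBP after feeding, and polyunsaturated fatty acids, which corn oil holds mainly as linoleic acid, are known to hold them down. In bulk tissue, fewer cells of a type and less RNA per cell cannot be told apart.

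In the plot of pair differences the genes at the corners, past 0.5 in both pairs, were few, and most genes farthest from the centre lay along 1 axis. Lcn2, an acute phase gene, was an exception, far out in both pairs with opposite signs. The F1 pair differed by at least 0.5 at 815 genes (9.11%) and the F3 pair at 94 (1.05%). Across the 8945 genes the differences of the F1 and F3 pairs had a correlation of 0.07, a description of 4 arrays normalized together. The sign was the same in both pairs for 4600 genes (51.4%). In limma, with generation as a term beside diet and 1 residual degree of freedom, 0 genes had an adjusted p below 0.05, 2 were below 0.10 (0.0224%), and 529 had an unadjusted p below 0.05 (5.91%). In a fit on all 8 arrays with diet and generation within age, 0 genes passed and 627 had an unadjusted p below 0.05 (7.01%). None of the differences below therefore passed the test, and they are given as values. Other scalings, filters, probe rules and variance models of the same 4-array fit called between 0 and 121 genes. Counts from other designs are given at the end.

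**Figure D1:**
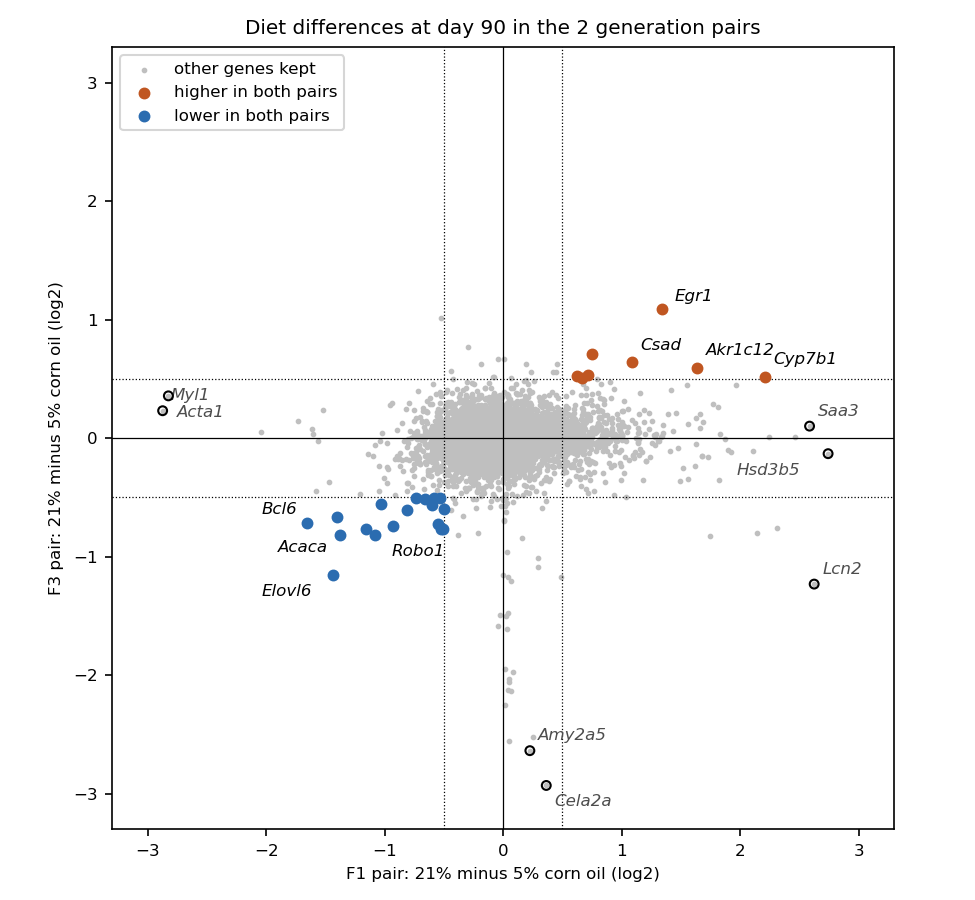
Diet difference of every gene kept, in the F1 pair (horizontal, log2) and in the F3 pair (vertical, log2), 1 point per gene, with dotted lines at 0.5 and -0.5. The 8 orange and 18 blue points are past 0.5 the same way in both pairs, and the circled genes of muscle, pancreas, acute phase and male-biased liver lists stand far out in 1 pair, or in both with opposite signs for Lcn2.

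Elovl6, a gene of fatty acid synthesis, had the largest lower difference by both the smaller pair value and the mean, and Acaca of the same pathway was among the next. Elovl6 elongates 16-carbon fatty acids and had log2 intensities of 11.19 (F1) and 11.61 (F3) at 5% corn oil and of 9.75 (F1) and 10.45 (F3) at 21%. Both 21% arrays lay below both 5% arrays. The mean difference was -1.30 ± 0.19 (moderated SE, n = 2 arrays a side), a level 2.46 times higher at 5%. Limma gave it an adjusted p = 0.0773. Each SE at day 90 rests mostly on the variances of all genes, with 12.4 prior degrees of freedom against 1 residual. Acaca, the acetyl-CoA carboxylase that commits carbon to fatty acids, read 11.55 and 11.42 at 5% and 10.17 and 10.60 at 21%, for F1 and F3 in that order, which is kept below. Its groups did not overlap either, and the difference was -1.10 ± 0.20 (adjusted p = 0.178 by limma). Elovl6 and Acaca were the only 2 genes, of 25 measured in the list of fatty acid and triglyceride synthesis, that were past 0.5 in both pairs.

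The rest of that list mostly stood on the same side with smaller values in the F3 pair. Of the 25 genes, 17 were lower in both pairs, 3 were higher in both and 5 differed in sign between the pairs, against 29.9% of all genes lower in both and 21.5% higher in both. The list median was -0.22 in the F1 pair and -0.18 in the F3 pair, beside -0.05 and 0.01 over all genes kept. Its median of the mean difference was -0.20, and -0.13 when the probes of a gene were averaged. Me1, the malic enzyme that supplies NADPH, was lower by 1.20 in the F1 pair and by 0.47 in the F3 pair, just short of the minimum. Scd1, the stearoyl-CoA desaturase, read 14.35 and 14.27 at 5% and 13.30 and 13.82 at 21%. Acss2 and Acly, which make acetyl-CoA from acetate and citrate, had differences of -1.10 and -0.97 in the F1 pair and of -0.15 and -0.26 in the F3 pair. The second probe of Acss2 differed by 0.22 and -0.10, unlike the probe used, and that of Me1 by -0.86 and -0.38. The groups of Me1, Scd1, Acss2 and Acly were apart, and for each the F1 21% array was the lowest of the 4. Fasn, the fatty acid synthase itself, differed by -0.16 and -0.28, and Srebf1, the gene of SREBP-1c, by -0.06 and -0.17. The 3 genes higher in both pairs included Aacs and Lpin1, each by less than 0.5.

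Oxidation and cholesterol genes did not share that pattern. Of 18 measured genes of mitochondrial fatty acid oxidation and ketogenesis, 10 were higher in both pairs and 1 lower, with medians of 0.04 and 0.18, and 0 were past 0.5 in both. Over all genes kept, 21.5% were higher in both pairs and 29.9% lower, the background for each list of this paragraph. Acaa2, the last thiolase of the cycle, differed by 1.81 in the F1 pair and 0.26 in the F3 pair, Acadl, a long-chain dehydrogenase, by 1.46 and 0.21, and Etfdh, which passes the electrons on, by 0.97 and 0.16. These values came from a low reading on F1 5% D90, and the second probes of the same genes differed by 0.16 and -0.03 for Acaa2, by -0.33 and 0.19 for Acadl and by 0.03 and -0.07 for Etfdh. Of 17 genes of cholesterol synthesis and uptake, 6 were higher in both pairs and 4 lower. Msmo1, a sterol demethylation enzyme, had the largest mean difference of that list, 0.90 in the F1 pair and 0.47 in the F3 pair, followed by Nsdhl (0.85 and 0.32), Pmvk (0.79 and 0.27) and Cyp51 (0.81 and 0.24). Each of these 4 read lowest on F1 5% D90. Among 16 desaturases, elongases and related genes of polyunsaturated fatty acids, 7 were lower in both pairs and 2 higher, with Elovl2 at -0.91 and -0.48, Cyb5r3 at -0.81 and -0.38 and Fads2, the first desaturase, at -0.27 and -0.37.

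**Figure D2:**
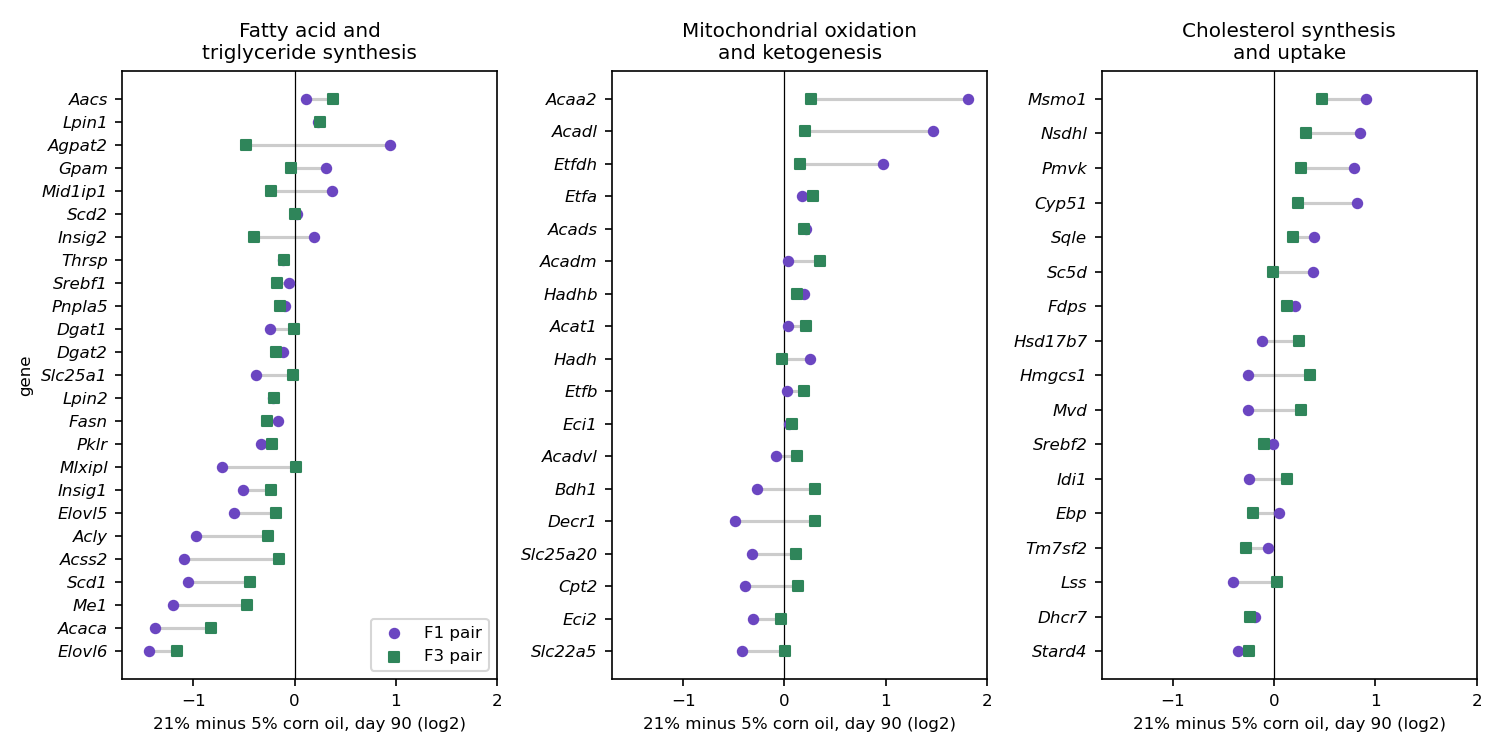
Diet difference (horizontal, log2, 21% minus 5%) of each measured gene of 3 lipid lists (vertical), with circles for the F1 pair and squares for the F3 pair. Elovl6 and Acaca are far below 0 in both pairs, whereas the largest values of the oxidation list (Acaa2 at 1.81 and Acadl at 1.46) are in the F1 pair alone.

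Several other lower genes encode enzymes and carriers of sterol, lipid and glucose metabolism. Cyp17a1, the steroid 17-hydroxylase, which rodent liver expresses, read 11.97 and 11.86 at 5% and 10.82 and 11.10 at 21%, a difference of -0.96 ± 0.18. Rdh16, a retinol dehydrogenase, read 10.12 and 9.76 against 8.72 and 9.10, a difference of -1.03 ± 0.21. For both genes each 21% array was below each 5% array. Pltp, which transfers phospholipids between lipoproteins, read 10.32 and 9.86 against 9.28 and 9.30 (-0.79 ± 0.20). Its second probe had smaller differences of -0.07 and -0.28. G6pc, the glucose-6-phosphatase that releases glucose, read 12.12 and 12.05 against 11.53 and 11.54, with groups apart and nearly equal differences of -0.58 and -0.51. Of 16 measured genes in the list of glucose production and the fasting response, 9 were lower in both pairs and 1 higher, with medians of -0.10 and -0.22. Among all genes kept, 29.9% were lower in both pairs and 21.5% higher. Pck1, the other gate enzyme of glucose production, differed by -0.18 and -0.46, its coactivator Ppargc1a by -0.24 and -0.36 and the aminotransferase Gpt2 by -0.41 and -0.25. Bhmt, which remethylates homocysteine from betaine, differed by -0.66 and -0.52, Cyp2c29, a drug-metabolizing P450, by -0.73 and -0.51, and Slc25a25, a mitochondrial ATP carrier, by -0.51 and -0.77.

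Regulators and signalling proteins made up much of the remainder. Bcl6, a transcriptional repressor, had the largest lower difference of the F1 pair among the 26 genes, reading 10.08 and 9.19 at 5% and 8.43 and 8.48 at 21% (-1.18 ± 0.23, adjusted p = 0.178 by limma). The 21% arrays were close to each other, and the 5% arrays were 0.89 apart. Robo1, a receptor for Slit guidance proteins, read 9.11 and 8.94 against 8.03 and 8.12 (-0.95 ± 0.18), with both groups tight. Gadd45g, a stress sensor gene, read 10.52 and 9.52 against 9.59 and 8.78. It was the only lower member whose groups overlapped, since F1 21% D90 read above F3 5% D90. Nfic, a nuclear factor I gene, differed by -0.50 and -0.60, and Pdcd4, an inhibitor of translation, by -0.55 and -0.72. The remaining lower members were Pdzk1ip1, a small membrane protein (-0.81 and -0.61), Lman1, a cargo receptor between the endoplasmic reticulum and the Golgi (-0.60 and -0.56), the acid phosphatase Acpp (-0.52 and -0.77) and Megf9, a membrane protein with EGF-like domains (-0.53 and -0.51).

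Promoter sequences from RefSeq (mouse assembly GRCm38.p6), each a window of 300 bases around the annotated start, existed for 22 of the 26 genes, some with several starts, 27 in all. Cyp17a1, Cyp7b1, Egr1 and Lman1 are named only. The letters CACGTG, an E-box that ChREBP and other basic helix-loop-helix factors can bind, were found on either strand (the motif is its own reverse complement) in 4 of the 27 promoters (14.8%), against 7.15% of 32851 promoters. All 4 belong to lower genes, Bcl6, Gadd45g, Megf9 and Pdzk1ip1. Most of the 22 genes with a promoter here were lower ones, so no direction is read from this. The letters CCAAT, searched on both strands, were in 12 of the 27 (44.4%) and in 37.4% of all promoters, and TCACNCCAC, a sterol regulatory element searched on both strands, in 0 of the 27 and in 1.24% of all. A match is a description of the letters only. The promoters of Elovl6, the gene with the smallest p, and of Bcl6 and Gadd45g, which hold the E-box, follow, with CACGTG and CCAAT in capitals. They lie at chr3:129532136-129532435 (plus strand), chr16:23988803-23989102 (minus strand) and chr13:51846425-51846724 (plus strand), and the Elovl6 window holds neither motif.
Elovl6: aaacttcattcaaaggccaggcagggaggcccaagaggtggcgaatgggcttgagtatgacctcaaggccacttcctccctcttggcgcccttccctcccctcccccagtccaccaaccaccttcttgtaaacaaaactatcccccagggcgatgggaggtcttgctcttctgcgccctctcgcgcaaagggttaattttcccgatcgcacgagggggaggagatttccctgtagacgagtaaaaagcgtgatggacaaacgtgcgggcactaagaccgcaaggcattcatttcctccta
Bcl6: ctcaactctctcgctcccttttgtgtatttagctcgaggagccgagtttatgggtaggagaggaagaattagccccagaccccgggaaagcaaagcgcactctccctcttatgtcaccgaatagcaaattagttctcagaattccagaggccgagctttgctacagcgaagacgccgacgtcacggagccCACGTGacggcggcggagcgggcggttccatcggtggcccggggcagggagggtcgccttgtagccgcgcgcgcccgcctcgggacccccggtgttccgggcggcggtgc
Gadd45g: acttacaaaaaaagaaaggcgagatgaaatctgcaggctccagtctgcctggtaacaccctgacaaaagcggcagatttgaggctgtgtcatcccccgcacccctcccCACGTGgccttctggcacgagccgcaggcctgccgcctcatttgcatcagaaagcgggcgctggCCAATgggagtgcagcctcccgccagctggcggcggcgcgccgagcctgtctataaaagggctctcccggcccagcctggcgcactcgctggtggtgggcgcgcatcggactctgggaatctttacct

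Egr1, an immediate early transcription factor, led the higher side. It read 10.07 and 10.38 at 5% and 11.41 and 11.46 at 21%, so the groups were well apart, and the difference was 1.21 ± 0.19, 2.32-fold, with an adjusted p = 0.0773 by limma. It was the only one of 17 measured immediate early genes past 0.5 in both pairs. Among all genes kept, 21.5% were higher in both pairs and 29.9% lower. The immediate early list had 4 genes higher in both pairs and 7 lower, with medians of -0.06 and -0.02. The median of the mean difference was -0.04, and its sign turned with the stricter filter on dim probes (0.12). Fos differed by 0.02 and 0.08, Jun by -0.09 and -0.14, Klf6 by -0.28 and -0.07 and Dusp1, a phosphatase induced with them, by -0.62 and -0.06. Fos and Jun were dim, with log2 intensities of at most 7.43 in the 4 arrays. Differences at that level may be understated, since the values appear to have no background subtracted.

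The other higher genes had larger differences in the F1 pair, the wider pair over all genes kept, than in the F3 pair. Cyp7b1, the oxysterol 7-alpha-hydroxylase of the alternative bile acid pathway, read 9.53 and 9.57 at 5% and 11.74 and 10.08 at 21%, so that its differences were 2.21 and 0.52. It is also one of the male-biased liver genes, and the array that read 11.74, F1 21% D90, was high for the median of that list, as given below. Csad, an enzyme of taurine synthesis, read 8.83 and 9.95 at 5% and 9.92 and 10.59 at 21%. Akr1c12, an aldo-keto reductase, read 9.42 and 10.96 against 11.06 and 11.55. Both genes were lowest on F1 5% D90, and for Csad the groups overlapped. Wfdc17, a secreted whey acidic protein family member made by mouse macrophages, read 8.31 and 9.07 against 9.07 and 9.78, so that F1 21% D90 read marginally below F3 5% D90. Vti1b, a SNARE protein of vesicle fusion, differed by 0.72 and 0.53, Sdr9c7, a short-chain dehydrogenase, by 0.63 and 0.52, and Adgrl4, an adhesion receptor of endothelium, by 0.66 and 0.51.

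**Figure D3:**
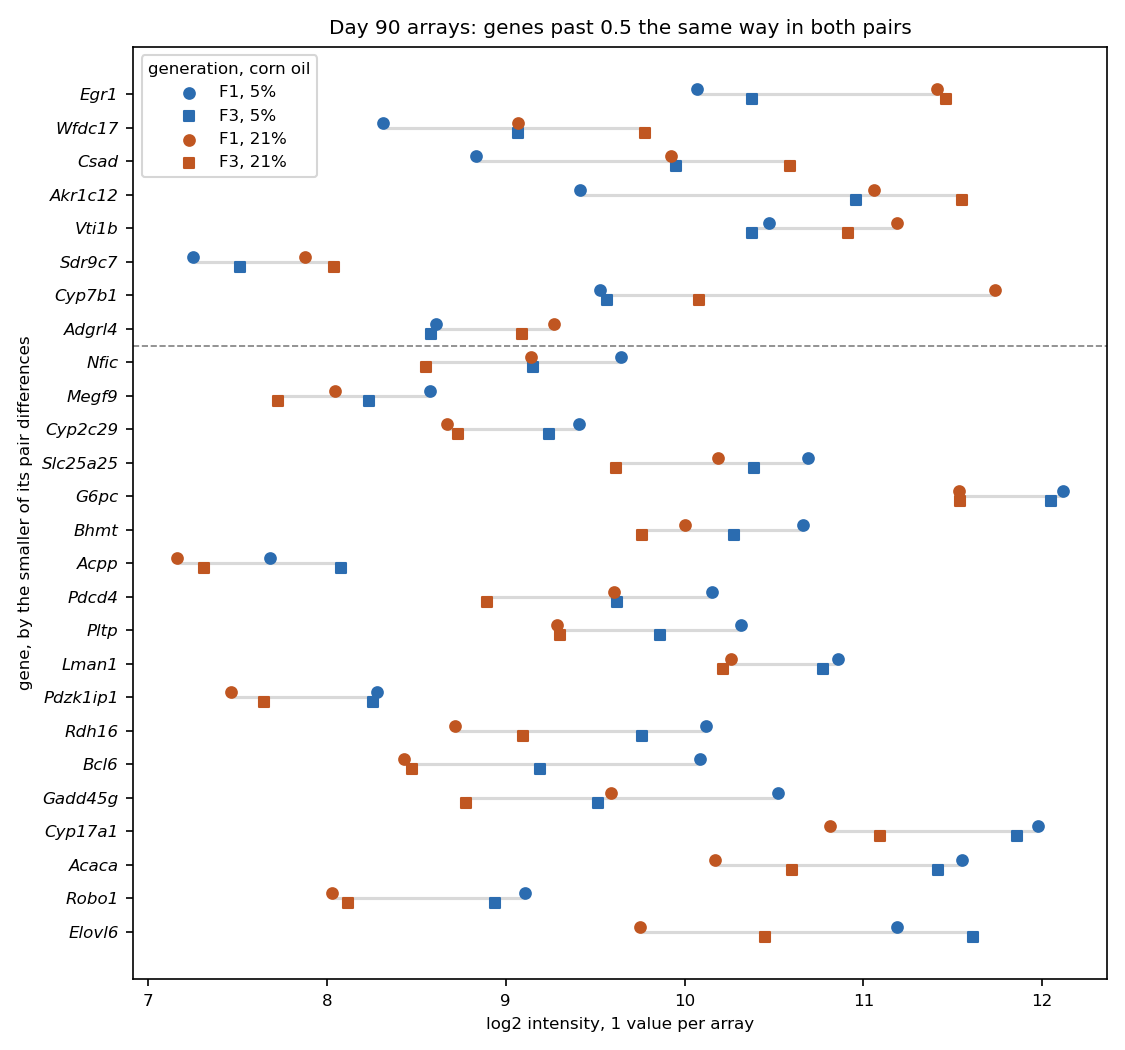
Log2 intensity (horizontal) of the 26 genes past 0.5 the same way in both pairs (vertical, ordered by the smaller of their pair differences) on each of the 4 arrays, with blue for 5% and orange for 21% corn oil, circles for F1 and squares for F3. Above the dashed line are the 8 higher genes and below it the 18 lower ones, and the groups overlap for Wfdc17, Csad and Gadd45g.

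The 21% arrays both stood above the 5% arrays for 6 of the 8 higher genes and both below for 17 of the 18 lower ones, where 14.2% and 19% of all genes kept had these orders. The minimum of 0.5 nearly sets this order, so nothing is read from it. The F1 difference was larger than the F3 difference in 22 of the 26 genes. Over all genes kept the F1 pair was also the wider one, with 9.11% past 0.5 against 1.05% in the F3 pair. Nothing about the members is read from this count. F1 5% D90 was the lowest of all 8 arrays for 5 of the 8 higher genes (20.7% of all genes) and the highest for 11 of the 18 lower ones (37.8% of all genes). Just inside the minimum on the higher side lay Adgrl4, Cyp7b1 and Sdr9c7, with smaller differences of 0.51, 0.52 and 0.52, and just outside lay Ugt3a1, Cyp2b13 and Msmo1, with 0.50, 0.50 and 0.47. On the lower side Nfic, Megf9 and Cyp2c29 lay inside, at -0.50, -0.51 and -0.51, and Elovl2, Me1 and Lipa outside, at -0.48, -0.47 and -0.45. Of the 26 genes, 5 had more than 1 kept probe, and in all 5 the second probe had the same sign in both pairs. None of these second probes reached 0.5 in either pair, the nearest being that of Nfic (-0.48 and -0.32). With the probes of a gene averaged, 22 of the 26 were past 0.5 in both pairs.

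Matching and leaving out arrays changed the membership. When each 21% array was set against the 5% array of the other generation, 31 genes were past 0.5 in both crossed pairs, and 13 of the 26 were among them. With F3 5% D90 as the only 5% array, 16 of the 26 genes still had both 21% arrays past 0.5 from it, among 52 such genes in all. The same 16 were past 0.5 when F1 21% D90 was the only 21% array, among 84. The 10 that were not are Akr1c12, Csad, Sdr9c7 and Wfdc17 on the higher side and Bhmt, Gadd45g, Megf9, Nfic, Pdcd4 and Slc25a25 on the lower. Without F3 5% D90, 23 of the 26 were past 0.5 among 451 genes, and without F1 21% D90, 23 among 36. In both cases the other 3 were Acpp, Adgrl4 and Vti1b. Elovl6, Acaca, Egr1, Robo1, Bcl6, Cyp17a1, Rdh16, Cyp7b1, Pltp, G6pc, Pdzk1ip1, Lman1 and Cyp2c29 were past 0.5 in all 4 of these settings. For a member, each setting adds only a crossed comparison, F1 21% D90 with F3 5% D90 or F3 21% D90 with F1 5% D90. These are therefore the same 13 genes as in the crossed pairs, and the agreement between settings was fixed by the rule.

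On each of 3 arrays some transcripts stood well above their level on the other day 90 arrays. F3 5% D90 had 20 genes at least 1 above each of the other 3 day 90 arrays (0.224%), and 18 of them were pancreatic acinar genes. Its log2 intensities were 10.10 for the amylase Amy2a5 (6.99 to 7.46 in the other 3), 10.47 for the elastase Cela2a (7.54 to 7.91), 9.74 for Reg1 (6.84 to 7.22) and 9.46 for the colipase Clps (6.90 to 7.06). The summed intensity of the 30 measured acinar genes was 14015 on that array, 5048 on F1 5% D90 and 6034 and 5963 on the 21% arrays. Acinar genes therefore had a median difference of 0.04 in the F1 pair and of -1.34 in the F3 pair, and none was past 0.5 in both. Of the defining acinar markers, Cela2a, Amy2a5, Clps and Ctrb1 were kept, and Ctrb1 read an intensity of 267 on F3 5% D90 and 118 to 124 on the others.

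F1 5% D90 had 10 genes at least 1 above the other 3 (0.112%), of which 9 were skeletal muscle genes. Myl1 and Acta1, a myosin light chain and the muscle actin, read 9.80 and 9.69 there, and at most 7.39 and 7.47 on the other day 90 arrays. Tnni2 and Tnnc2, troponin subunits, followed at 9.09 and 8.62, with Cox6a2, Mb, Atp2a1 and Mylpf between 8.42 and 8.51. The 26 measured muscle genes summed to 8084 on that array and to between 4104 and 4295 on the other 3. The same array had 43 genes at least 1 below the other 3 (0.481%), where each of the other arrays had 0. They were led by Dmbt1 (6.77, against at least 9.11), A1bg (9.06, against at least 11.02), the glutamate dehydrogenase Glud1 (9.39, against at least 11.26) and the ribosomal protein gene Rps7 (10.81, against at least 12.51), followed by Atp5pb, Rps6, Lyz2 and Mtch2. Csad and Akr1c12 were among the 43. Another kept probe existed for 21 of the 43 genes. Over these 21 the probe used deviated by a median of -1.32 from the other day 90 arrays and the other probe by -0.56, and 10 of the other probes deviated by less than 0.5.

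F1 21% D90 had 17 genes at least 1 above the other 3 (0.190%), of which 9 are male-biased in mouse liver and 5 encode acute phase proteins. The serum amyloid gene Saa3 read 10.62 (8.04 to 8.22 on the others), the steroid dehydrogenase Hsd3b5 10.39 (7.65 to 8.20), Cyp4a12a 9.11 (6.87 to 6.92), the acute phase glycoprotein Orm2 12.05 (9.57 to 10.40) and the lipocalin Lcn2 11.22 (8.40 to 9.64). Tff3 and Serpina1e were next in order beside Cyp7b1. The 22 measured male-biased genes had a median difference of 1.01 in the F1 pair and 0.02 in the F3 pair, and summed to 99090 on that array against 67944 to 72915 on the other 3. Eif2s3y, a gene of the Y chromosome that did not pass the filter, had an intensity of 166 there and of 109 to 112 on the other day 90 arrays. Uty and Kdm5d, also on the Y chromosome, had intensities of 123 and 122 there, against 124 to 129 and 116 to 118. Xist, the RNA that silences 1 X chromosome in females, read 273 there, the lowest of the day 90 arrays (344 to 397 on the other 3), though 253 on F3 21% D456 was lower. The series describes all samples as female, and whether all RNA on F1 21% D90 came from females was not tested, which bears on every value of the F1 pair. The 26 acute phase genes had medians of 0.00 and -0.14, so the array stood apart by 5 of them and not by the list. F3 21% D90 had 0 genes at least 1 above or below the other 3, with Gadd45g (0.74 below), Orm2 (0.73 below) and Wfdc17 (0.71 above) the farthest out. The part of these transcripts in the differences of the 26 genes was not tested. None of the 26 belongs to the acinar, muscle or acute phase lists, Cyp7b1 belongs to the male-biased one, and Cyp17a1, a lower member, to the list of 21 measured female-biased liver genes. That list had a median of -0.20 in the F1 pair and 0.01 in the F3 pair.

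**Figure D4:**
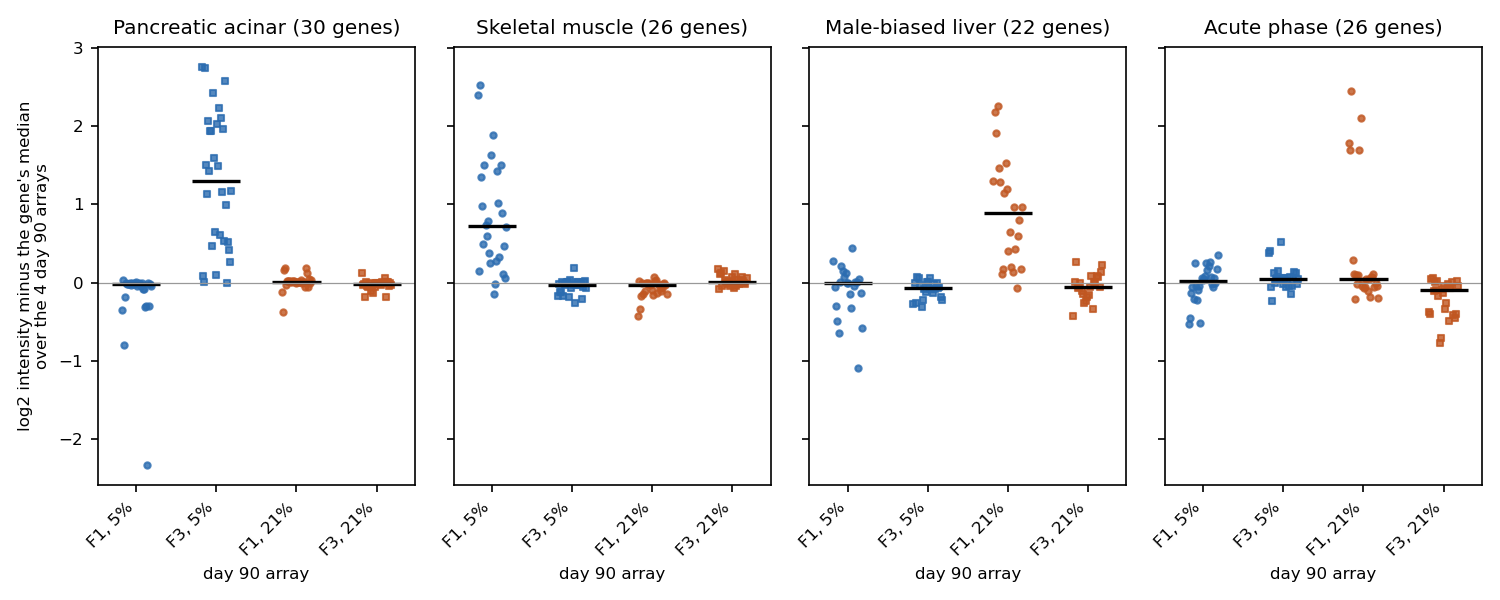
Log2 intensity of each gene of 4 lists minus that gene's median over the 4 day 90 arrays (vertical), by array (horizontal), with a black bar at the list median. Acinar genes stand high on F3 5% D90, muscle genes on F1 5% D90 and male-biased genes on F1 21% D90, whereas 5 acute phase genes alone stand out on F1 21% D90.

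Across the 4 day 90 arrays some defining markers of liver cell types varied little and others more. The defining hepatocyte genes Ttr and Apoa1 had intensities of 23694 to 24607 and of 25416 to 27667 on the 4 arrays. Alb read 527 and 437 at 5% and 358 and 322 at 21%, and Cps1 5127 and 10420 against 9302 and 8079. Of 29 measured hepatocyte identity genes, 18 were lower in both pairs and 2 higher, with medians of -0.11 and -0.07. Over all genes kept, 29.9% were lower in both pairs and 21.5% higher, the background for each list here. Of 26 measured macrophage genes, a list that covers the Kupffer cells resident in liver, 12 were higher in both pairs and 2 lower, with medians of 0.11 and 0.22. The complement genes C1qc (0.91 and 0.34) and C1qb (0.85 and 0.33), the folate receptor Folr2 (0.45 and 0.56) and Tyrobp (0.53 and 0.36) were among these 12. Lyz2, a lysozyme, differed by 1.66 and 0.20, and its second probe by -0.01 and 0.16. The defining marker Clec4f differed by -0.08 and 0.51 and Vsig4 by -0.04 and 0.67, so neither was higher in both pairs. The macrophage genes summed to 20383 and 23245 at 5% and to 23867 and 29561 at 21%. Of 26 measured endothelial genes, 13 were higher in both pairs and 1 lower, with medians of 0.00 and 0.19, led by Fcgr2b (0.23 and 0.56) and Egfl7 (0.34 and 0.35). Their summed intensity was 17865 and 15970 at 5% and 18110 and 19787 at 21%. Of 29 genes of stellate cells and matrix, 15 were lower in both pairs and 1 higher, with medians of -0.08 and -0.07.

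The day 456 arrays, which took no part in choosing the 26 genes by the rule, gave the same direction for some of them. Of the 8 higher genes, 4 were higher in both day 456 pairs, where 39.0% of all genes were, and of the 18 lower genes, 7 were lower in both, where 23.4% of all genes were. The minimum of 0.5 was also met in both day 456 pairs, with the same sign, by 9 of the 26 genes (34.6%), which are 10.7% of the 84 genes that met it at day 456. At day 456 the shares of all genes were 0.235% higher and 0.704% lower. The higher ones were Egr1 (0.78 and 0.82 in the F1 and F3 pairs), Csad (0.88 and 0.53) and Cyp7b1 (0.64 and 0.57). The lower ones were Elovl6 (-1.22 and -0.95), Acaca (-0.59 and -0.58), Robo1 (-0.82 and -0.60), Pltp (-0.79 and -0.59), Pdzk1ip1 (-1.43 and -0.54) and Acpp (-1.38 and -0.52). Both 5% arrays of day 456 held acinar transcripts, with Cela2a at intensities of 3093 and 4340 against 233 and 213 on the 21% arrays. Muscle genes summed to 6594 on F3 5% D456 and to between 4272 and 4487 on the other day 456 arrays. Stomach and intestine genes summed to 3508 on F1 5% D456 and to between 1170 and 1383 on the others. The part of these transcripts in the day 456 differences was not tested.

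Other members stood on opposite sides at the ages. Bcl6 differed by 0.58 and 0.17 at day 456, Bhmt by 0.44 and 1.19, Vti1b by -0.35 and -0.79, Wfdc17 by -0.42 and -0.20 and Akr1c12 by -0.45 and -0.03. In the limma test of diet by age on all 8 arrays, 0 genes had an adjusted p below 0.05 and 1055 had an unadjusted p below 0.05 (11.8%). The 3 smallest p-values belonged to Cela1, Klk1b27 and Gp2, each with an adjusted p = 0.327, and Cela1 and Gp2 are acinar genes. Across the 8945 genes the correlation of day 90 with day 456 was -0.46 for the F1 pairs and 0.50 for the F3 pairs. Between generations, the F1 pair of day 90 had one of -0.12 with the F3 pair of day 456. The F3 pair of day 90 had one of 0.39 with the F1 pair of day 456. Between the F1 and F3 pairs of day 456 it was 0.58. These pairs share no array, but all 8 were normalized together.

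**Figure D5:**
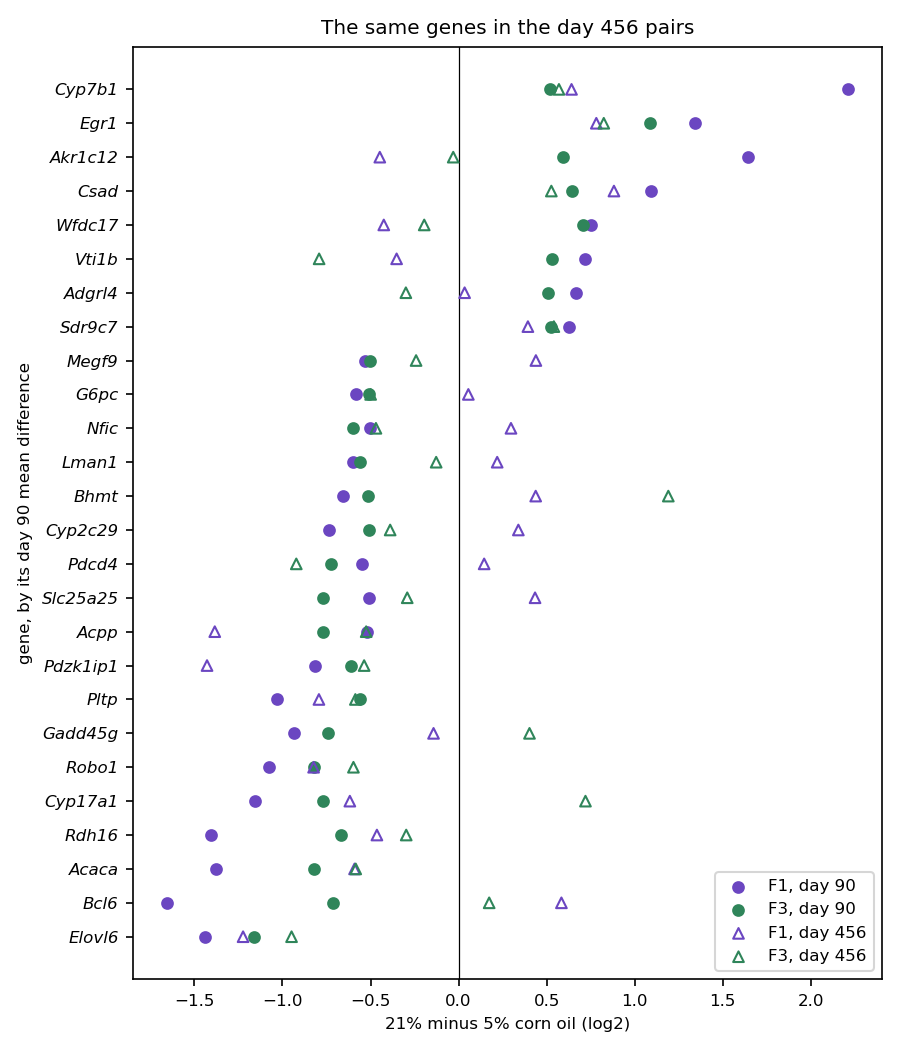
Diet difference (horizontal, log2, 21% minus 5%) of the 26 genes (vertical) in the day 90 pairs (filled circles), by which they were chosen, and in the day 456 pairs (open triangles), with purple for F1 and green for F3. Elovl6, Acaca, Robo1, Pltp, Egr1, Csad and Cyp7b1 keep their side at day 456, and Bcl6 and Bhmt lie on the other.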

How the data were processed

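Liver total RNA was measured on 8 Illumina bead arrays, 1 for each diet, age and generation. Per the labels, RNA was extracted with Trizol, checked on a Bioanalyser and labelled with biotin. The authors deposited 1 linear intensity per probe and array. The method of normalization was not given in the sources used here. Array medians lay between 123.2 and 123.5, and the lowest values between 101.4 and 104. The deposited intensity was therefore taken as normalized between arrays with no background subtracted, which would understate differences of dim genes. The number of arrays limits the precision.

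Values were log2 transformed. Of 25697 probes, 23978 carried 1 gene symbol, 0 several and 1719 none. Probes with a mean above 6.95, the median of the probe means over 8 arrays, were kept, and each gene was represented by its brightest kept probe, which left 8945 genes. Diet at day 90 was tested with limma 3.58.1 in R 4.3.3 on the 4 arrays, with generation as a term, an intensity trend and Benjamini-Hochberg adjustment over all genes (two-sided, threshold 0.05). The median moderated standard error was 0.15. Diet by age was tested on all 8 arrays with 3 residual degrees of freedom. Arrays were paired by the generation in their titles, and replicate numbers only name arrays. The procedure was tested on simulated data, in which more than the nominal share of calls was false, so calls of this fit are read with caution. In the same simulated data 20.4 to 26.4 unchanged genes per run were past 0.5 the same way in both pairs. Those data gave a gene the same spread on every array, whereas the real F1 pair had 815 genes past 0.5 and the F3 pair 94. The simulated counts therefore cannot be set against the 26 real genes. Membership is a description, and alone it does not mark a gene as changed by diet.

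The members and the 48 gene lists were chosen with earlier results of these data known, and no list was tested. Named genes were those that passed the test, then the 15 higher and 15 lower genes with the largest smaller-of-the-pair differences among those past 0.5 in both pairs, for each list described up to 6 members with the largest absolute mean difference, the 8 genes with the largest excess on each single array, and the 3 with the smallest p for diet by age. Fasn, Srebf1, Aacs, Lpin1, Fos, Jun, Eif2s3y, Xist, Uty and Kdm5d were named after their values were seen. Alternatives were other scalings, background subtraction, filters, probe rules, variance models, thresholds, designs and leaving out each array. Figures were drawn with matplotlib 3.10.9.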

Additional observations from a re-analysis of the deposited data

Results flagged for a closer look

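For 5 of the 26 genes both day 90 pairs went one way and both day 456 pairs the other. They were 3 of the 8 higher genes (37.5%), where 23.4% of all genes were lower in both day 456 pairs, and 2 of the 18 lower genes (11.1%), where 39% of all genes were higher in both, so these shares were not far above the background or were below it. The diet difference at day 456 minus that at day 90 was -1.36 ± 0.46 (moderated SE) for Akr1c12 and 1.56 ± 0.31 for Bcl6. It was 1.40 ± 0.26 for Bhmt, -1.20 ± 0.22 for Vti1b and -1.04 ± 0.33 for Wfdc17. In the limma interaction test on 8 arrays the adjusted p was 0.403 for Akr1c12, 0.381 for Bcl6, 0.327 for Bhmt, 0.327 for Vti1b and 0.403 for Wfdc17, so none passed. These genes were chosen for their differences at day 90, so this contrast is not independent of the choice. Akr1c12 and Wfdc17 read lowest of all 8 arrays on F1 5% D90, and Bcl6 and Bhmt highest there.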

How the results depend on the processing

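None of the day 90 differences of the 26 genes past 0.5 in both pairs changed sign under the alternatives run, and of the 415 values recomputed for them 328 stayed on the same side of the threshold and 87 newly passed it. These genes were chosen for differences of the same sign on these arrays. The other filters and variance models also left the difference of a kept gene as it was, so nothing is read from the unchanged signs. The number of genes past an adjusted p of 0.05 in limma at day 90 was 0 as reported and also with quantile normalization, with the mean of probes, without an intensity trend and in both fits on 8 arrays (smallest adjusted p = 0.151 and 0.44). Without the generation term, which is the fit with no replicate block for the pairing by generation, it was 0 as well (smallest adjusted p = 0.799). It was 37 with median centring, 11 with background subtracted, 121 with no filter, 10 with a stricter filter, 2 with the filter on the day 90 arrays, 62 with robust variances and 2 at a threshold of 0.10. Leaving out each array in turn, with diet alone in the fit, gave 0 to 510, the most without F3 5% D90, beside 35 without F1 5% D90, 0 without F1 21% D90 and 20 without F3 21% D90. With 1 residual degree of freedom the prior degrees of freedom that limma estimated went from 12.4 as reported to 2.23 without a trend, 24.0 with median centring and 67.75 with no filter, and no filter, with the highest estimate of the scalings and filters tried, gave the most calls of these. The 26 genes past 0.5 in both pairs became 68 with background subtracted (25 higher), and 112, 5 and 2 at minimums of 0.3, 0.75 and 1. Leaving out an array and its pair left 94 to 815 genes past 0.5 in the other pair. The 3-array counts, chosen after the data had been seen, were 52 without F1 5% D90, 451 without F3 5% D90 and 84 without F3 21% D90. Diet by age called 0 to 232 genes when each array was left out, 232 without F3 5% D90, 4 without F3 5% D456 and 11 without F3 21% D90. The 47 genes high on single arrays were 23 at a minimum excess of 1.5 and 13 at 2. Of 46 lists with at least 3 measured genes, 9 had medians of the same sign in both pairs and a mean median of at least 0.1, against 16 with background subtracted and 16 with the stricter filter. The causes were not tested.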
